A study of Mus musculus with 167 samples.

Results

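The genes described here are 105 protein-coding neighbours of Htt, the gene for huntingtin that carries the expanded CAG repeat in Huntington's disease. Htt lies on mouse chromosome 5 (GRCm38, 34761740 to 34912534), and the neighbours are the protein-coding genes that start within 10 Mb of either end of it, from 24761740 to 44912534, and that reached a mean of at least 0.5 CPM (counts scaled to a common library size) over all libraries. Of the 39179 gene IDs in the deposited tables, 183 were protein-coding genes of this window. The level filter removed 69 of them, and 9 were set aside by name. The 10 names set aside were Htt, Abhd1, Atraid, Pisd, Ppp1cb, Slc35f6, Hadha, Hadhb, Insig1 and Galnt11, of which Abhd1 is not annotated as protein-coding in GENCODE M21. Some of these 10 were past the threshold in the comparisons below, so every count over the 105 describes what was left after that choice. The least abundant members were Slc30a3 (mean 0.512 CPM), Grk4 (0.647 CPM) and Cpz (0.690 CPM), and the genes just under the limit were Cgref1 (0.374 CPM), Bst1 (0.304 CPM) and Msantd1 (0.282 CPM). On the side of the lower coordinates lay 67 members, and on the other side 38.

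Messenger RNA was sequenced from the livers of 167 C57BL/6 mice of both sexes, aged 2, 6 or 10 months. The mice were wild type (WT) or heterozygous for 1 of 6 knock-in alleles of Htt named by the length of the CAG repeat (Q20, Q80, Q92, Q111, Q140 and Q175). Each of the 21 groups of genotype and age held 8 libraries, except Q80 at 10 months with 7. Libraries held between 32025244 and 57151736 counts. WT mice were labelled as housed with Q20 mice and every other line with its own, so allele, colony and cage cannot be told apart in comparisons with another line. At 6 months the library names of WT and of the knock-in lines carried different kinds of index code, and knock-in mice were not compared with WT at that age.

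Genes that lie beside an engineered allele are inherited with it. When a knock-in made in one strain is crossed into another, DNA of the donor strain can stay around the locus for many generations, and such linked genes can differ from WT through their own sequence. A change of the targeted gene can also act on its neighbours directly, through shared regulatory DNA or read-through transcription. The sources used here give neither the origin of the 6 alleles nor the number of backcrosses. The neighbours themselves share a position and no single function. They include enzymes and regulators of sugar and lipid metabolism such as Khk, Gckr and Prkag2, transporters such as Slc2a9, and proteins of the cilium such as Evc and Evc2.

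Some libraries stood apart from the others of their group, and these were spread unevenly over the genotypes. Hepatocyte markers were high throughout, with 6 markers summing to between 61993 and 140049 CPM. The library labelled as male M5 of Q80 at 2 months had Prom1 at 5.37 CPM, above the other labelled males of that age, and its sex label was at odds with its genes. At 10 months 3 Q175 libraries held muscle or blood RNA, 7 libraries over all ages had the bile duct keratin Krt19 above 10 CPM, and 3 Q20 females of 6 months stood apart in macrophage genes. In whole liver, fewer cells of a type and less RNA per cell cannot be told apart.

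Comparing the knock-in lines together with WT asks whether the engineered allele, whatever its length, goes with another level of its neighbours. No member passed the threshold at 2 months (0 of 105) or at 10 months (0 of 105), where a call means an adjusted p below 0.05 in edgeR's quasi-likelihood test, adjusted by Benjamini and Hochberg's method across every gene tested. Over all genes tested 0.033% were called at 2 months (5 of 15137) and 0.0255% at 10 months (4 of 15689). DESeq2 and limma also called 0 members at either age. At an unadjusted p below 0.05 there were 19 members (18.1%) at 2 months against 10.3% of all genes, and 3 members (2.86%) at 10 months against 3.83% of all genes. The genes set aside by name gave 3 of the 5 calls at 2 months and 3 of the 4 at 10 months. They were Abhd1, with a log2 fold change of 2.26 ± 0.40 (SE) at 2 months and 2.32 ± 0.37 at 10 months, Atraid with −0.20 ± 0.04 and −0.22 ± 0.04, Galnt11 at 2 months (0.44 ± 0.09) and Htt at 10 months (−0.40 ± 0.07).

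The differences of the 105 members were small. The median of their absolute log2 fold changes was 0.06 at 2 months, beside 0.07 over all genes, and 0.06 at 10 months, beside 0.06. In protein-coding genes with the same level filter it was 0.061 on the rest of chromosome 5 and 0.060 on other chromosomes at 2 months. At 10 months it was 0.046 and 0.048 in these, beside 0.057 in the members. The 95% confidence interval lay within a fold change of 1.5 in either direction for 99 members at 2 months and for 100 at 10 months. It lay within a fold change of 2 for all 105 at 2 months and for 103 at 10 months. At 2 months the fitted values ran from −0.45 for Spon2, a secreted matrix protein, to 0.48 for Drc1, a part of the dynein regulator of motile cilia.

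**Figure D1:**
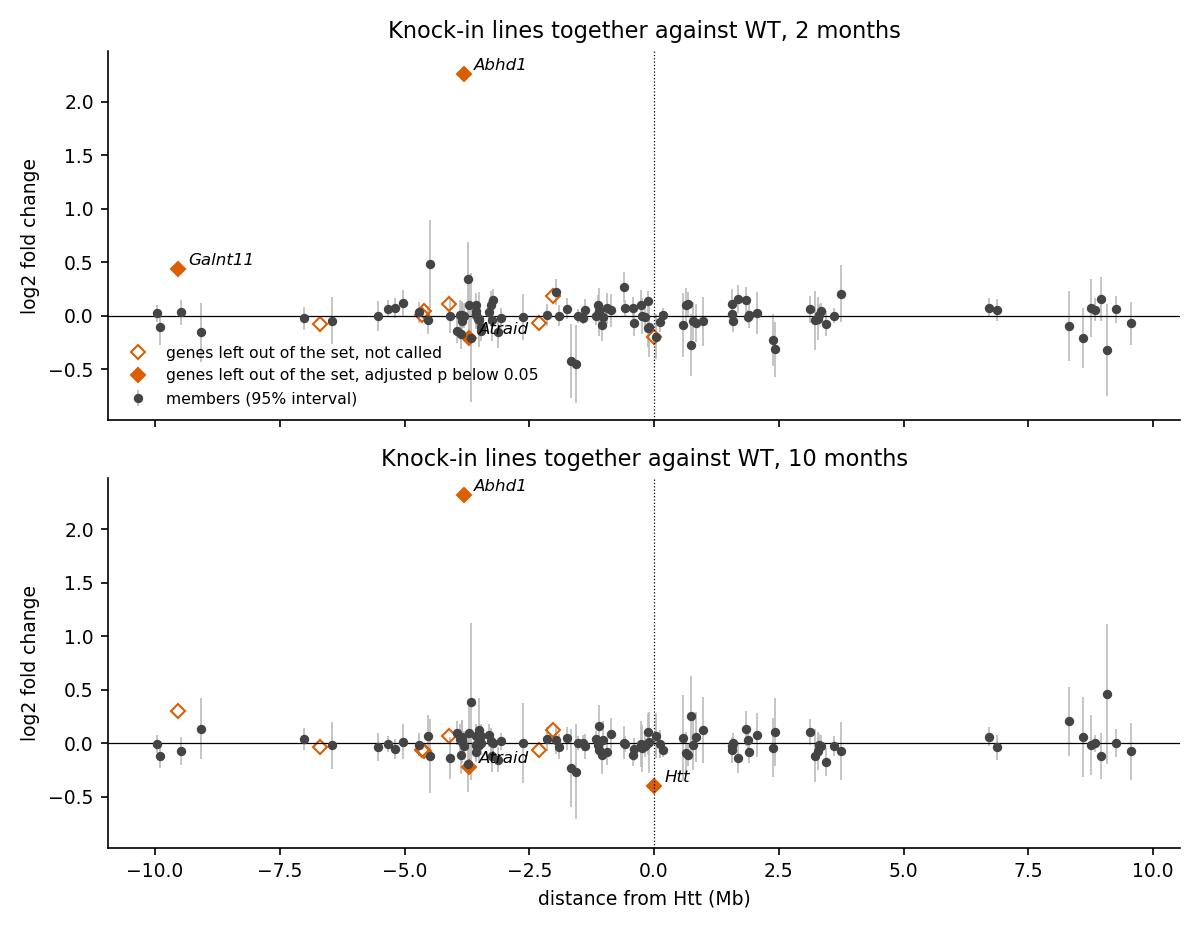
Log2 fold change of each gene, knock-in lines together against WT, by its distance from Htt in Mb, at 2 months (top) and 10 months (bottom). Dark points are the 105 members with 95% confidence intervals and orange diamonds are the 10 genes set aside by name. The members lie near 0 on both sides of Htt, while Abhd1 stands at 2.26 and 2.32.

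The 3 nearest genes on each side of Htt are described by position. On the side of the lower coordinates these were Grk4, a kinase of G protein-coupled receptors, then Nop14, needed to build the small ribosomal subunit, and Mfsd10, a membrane protein of a transporter family. On the other side they were Rgs12, a regulator of G protein signalling, then Hgfac, the liver-secreted protease that activates hepatocyte growth factor, and Lrpap1, a chaperone of the LDL receptor family.

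Grk4, 0.101 Mb from Htt, was among the least abundant members. At 2 months its lowest, median and highest levels were 0.452, 0.640 and 0.991 CPM in 8 WT mice and 0.292, 0.623 and 0.961 CPM in 48 knock-in mice. At 10 months they were 0.479, 0.610 and 0.819 CPM in WT and 0.364, 0.571 and 1.13 CPM in 47 knock-in mice. The groups overlapped almost entirely at either age. The log2 fold change was −0.10 ± 0.14 (adjusted p = 0.838, edgeR) at 2 months and 0.01 ± 0.14 (adjusted p = 1) at 10 months, with 95% intervals from −0.38 to 0.18 and from −0.28 to 0.30.

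Rgs12, whose start is 0.0369 Mb past the other end of Htt, had levels of 4.18, 5.05 and 7.73 CPM (lowest, median, highest) in WT at 2 months and 2.58, 4.69 and 8.02 CPM in knock-in mice. At 10 months they were 2.84, 4.99 and 6.22 CPM in WT and 2.14, 5.25 and 9.82 CPM in knock-in mice. The knock-in range enclosed the WT range at both ages. The log2 fold change was −0.19 ± 0.10 (adjusted p = 0.522, edgeR) at 2 months and 0.07 ± 0.10 (adjusted p = 1) at 10 months.

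Of the other 4 near neighbours none passed the threshold either. The WT mean of Hgfac at 2 months was 177 ± 26.8 CPM (SD, n = 8) and the knock-in mean 169 ± 26.3 CPM (SD, n = 48), a log2 fold change of −0.06 ± 0.05. Lrpap1 stood at 37.2 ± 2.26 CPM in WT and 37.3 ± 2.25 CPM in knock-in mice of 2 months, with a log2 fold change of 0.00 ± 0.03. Mfsd10 differed by −0.11 ± 0.09 at 2 months and 0.11 ± 0.09 at 10 months. Nop14 had the smallest p of these genes at 2 months, with a mean of 13.4 ± 0.855 CPM in WT and 14.8 ± 1.47 CPM in knock-in mice and a log2 fold change of 0.14 ± 0.04 (adjusted p = 0.326, edgeR). At 10 months its means were 14.9 ± 1.58 and 14.9 ± 1.68 CPM and the log2 fold change was 0.00 ± 0.06.

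The members with the smallest p at 2 months were Prr14l and Haus3, a subunit of the augmin complex of the mitotic spindle. Prr14l had a mean of 21.2 ± 2.67 CPM in WT (SD, n = 8) and 24.8 ± 2.48 CPM in knock-in mice (SD, n = 48), and its log2 fold change was 0.22 ± 0.06 (unadjusted p = 0.000408, adjusted p = 0.229, edgeR). Haus3 had means of 3.41 ± 0.385 and 4.11 ± 0.502 CPM and a log2 fold change of 0.27 ± 0.07 (adjusted p = 0.231, edgeR). At 10 months, in other animals, the log2 fold changes were 0.03 ± 0.07 for Prr14l and 0.01 ± 0.08 for Haus3. Neither passed the threshold at 2 months under any alternative run, the smallest adjusted p being 0.106 for Prr14l and 0.132 for Haus3.

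Distance from Htt was examined in bands of 2.5 Mb. All 19 members with an unadjusted p below 0.05 at 2 months lay in the bands from 5 Mb before Htt to 2.5 Mb after it, with 8 of 30, 7 of 27 and 4 of 20 members. The other bands, of 4, 6, 8, 2 and 8 members, held none of them. Of the genes set aside by name and called at 2 months, Galnt11 lay in the first of these bands, at −9.54 Mb. Abhd1 and Atraid lay in the band from 5 to 2.5 Mb before Htt. At 10 months the same 3 bands gave 1 of 30, 1 of 27 and 0 of 20, and the band from 2.5 to 5 Mb after Htt 1 of 8. The median log2 fold change was between −0.05 and 0.06 in every band at both ages. For comparison, the share with an unadjusted p below 0.05 at 2 months was 11.5% of 672 protein-coding genes on the rest of chromosome 5 and 10.4% of 11482 on other chromosomes. At 10 months these shares were 2.98% and 3.36%.

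The mice of 2 and of 10 months are separate animals. Across the 105 members the log2 fold changes of the 2 ages had a Pearson r of −0.21 and a Spearman rho of −0.16, and 46 members had the same sign, given as a description because genes in a library are not independent. The test of the difference between the ages called 0 members and 0.0% of all genes, and DESeq2 and limma called 0 members too. At an unadjusted p below 0.05 there were 14 members (13.3%), beside 8.24% of all genes. Rbks, the ribokinase that starts ribose breakdown, had nearly equal values at the 2 ages, −0.15 ± 0.07 and −0.15 ± 0.06, and passed at neither (adjusted p = 0.457 and 1, edgeR).

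Read by role, none of the 7 lists of members had a gene past the threshold at either age. The lists held 80 of the 105 members. Among 9 metabolic enzymes the median log2 fold change was −0.01 at both ages, and the smallest p was that of Rbks at 10 months. Among 6 transporters and channels it was −0.09 at 2 months and −0.07 at 10 months, with the smallest p for Slc2a9, a urate and sugar transporter of hepatocytes, at 10 months (−0.17 ± 0.07). Among 14 genes of chromatin and transcription the medians were 0.02 and −0.03, and the smallest p was that of Mxd4, an antagonist of MYC, at 2 months (0.08 ± 0.04). Among 13 genes of ubiquitin, folding and secretion they were 0.02 and 0.00, with Rnf4, a ubiquitin ligase for SUMO-marked proteins, at −0.11 ± 0.05 at 10 months. Among 11 signalling genes they were −0.03 and 0.00, with Rgs12 as above. Among 14 genes of the cytoskeleton, cilia and matrix they were −0.05 and 0.01, and among 13 genes of RNA, translation and DNA repair 0.06 and −0.01, with Haus3 and Nop14 as above. The median over all genes was 0.00 at both ages.

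Each line was then compared with WT by itself, which gave 12 comparisons and 4 calls among the members. At 2 months Q175 had 1 call, Evc2, where 0.509% of all genes were called. No member was called at 2 months in Q20 (0.0% of all genes), Q80 (0.126%), Q92 (0.00661%), Q111 (0.0%) or Q140 (0.033%). At 10 months there was 1 call each in Q92 (Zfp512, 0.58% of all genes), Q111 (Prom1, 0.835%) and Q175 (Prkag2, 1.09%), and none in Q20, Q80 or Q140 (0.00637% of all genes in each). In the lines with no call, the members with an unadjusted p below 0.05 numbered 10 in Q20 (9.52%, beside 3.14% of all genes), 12 in Q80 (11.4%, beside 7.85%), 15 in Q92 (14.3%, beside 11.8%), 4 in Q111 (3.81%, beside 7.21%) and 12 in Q140 (11.4%, beside 12.01%) at 2 months. At 10 months they numbered 5 in Q20 (4.76%, beside 2.05%), 7 in Q80 (6.67%, beside 5.95%) and 3 in Q140 (2.86%, beside 3.11%). DESeq2 called 2 members each in Q92 (0.192% of all genes) and Q140 (0.37%) at 2 months and none in the other 6, and limma none in these 8 comparisons. In Q175 at 2 months 28 members (26.7%) had an unadjusted p below 0.05, beside 14.5% of all genes.

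Evc2 encodes a membrane protein at the base of the primary cilium that takes part in hedgehog signalling, and it was lower in Q175 than in WT at 2 months. WT females had 3.18, 2.34, 2.46 and 3.75 CPM, and Q175 females 1.41, 1.44, 1.42 and 2.24 CPM. WT males had 0.833, 1.02, 1.24 and 1.27 CPM, and Q175 males 0.809, 0.845, 0.664 and 0.587 CPM. The females of the 2 groups did not overlap, and among the males 1 Q175 mouse was above the lowest WT mouse. The log2 fold change was −0.74 ± 0.18 (adjusted p = 0.0371, edgeR). At 10 months it was 0.16 ± 0.21 (adjusted p = 0.812, edgeR). The call at 2 months was lost when WT female F1 or F4, or WT male M3 or M4, was left out, at an adjusted p of 0.071, 0.092, 0.073 and 0.085 by edgeR.

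Another pair of members, Evc and Prom1, was close to the threshold in that comparison. Evc, which binds Evc2 and was named after its values were seen, had a log2 fold change of −0.65 ± 0.17 (adjusted p = 0.0526, edgeR). Prom1, which encodes prominin-1, a protein of membrane protrusions found on bile duct and progenitor cells, had −1.18 ± 0.30 (adjusted p = 0.0504, edgeR). At 10 months Q175 differed from WT by −0.03 ± 0.18 in Evc and by 0.07 ± 0.41 in Prom1.

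Prom1 was higher in Q111 than in WT at 10 months, with a wide spread between libraries. WT females had 8.90, 4.66, 5.66 and 8.25 CPM, and Q111 females 12.1, 27.1, 12.4 and 12.8 CPM. WT males had 1.02, 1.54, 1.19 and 1.39 CPM, and Q111 males 0.939, 0.906, 20.2 and 0.974 CPM. All Q111 females were above all WT females, while 3 of the 4 Q111 males were below every WT male and the other, M3, was above every WT female. The log2 fold change was 1.83 ± 0.41 (adjusted p = 0.0154, edgeR).

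Krt19, a keratin of bile duct cells, was 63.9 CPM in that male M3, 9.84 CPM in female F2 and 10.6 CPM in female F4 of Q111, and between 0.522 and 2.26 CPM in the other Q111 mice of 10 months. In WT mice of that age it was between 0.644 and 1.59 CPM. Without the libraries that had Krt19 above 10 CPM the log2 fold change of Prom1 was 0.68 (adjusted p = 0.748, edgeR). The 5 bile duct markers summed to between 33.7 and 151 CPM in Q111 and between 38.3 and 76.4 CPM in WT at 10 months. The medians of these sums were 54.4 CPM in Q111 and 55.6 CPM in WT. The part of these markers in the result was not tested. Q92 females of 10 months also had high Prom1, at 19.8 ± 9.07 CPM (SD, n = 4), and Q92 differed from WT by 1.02 ± 0.40 (adjusted p = 0.226, edgeR).

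**Figure D2:**
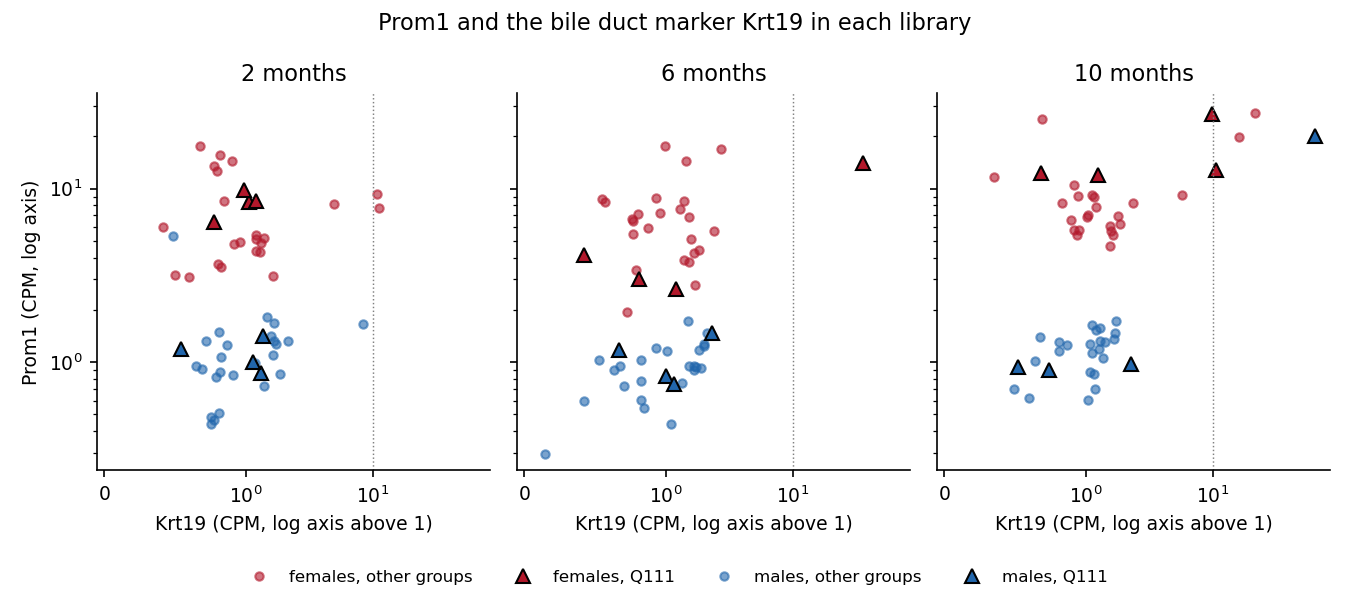
Prom1 against the bile duct marker Krt19 in every library, in CPM on log axes (the Krt19 axis is linear below 1), by age. Red marks are females, blue marks males, triangles are Q111 and the dotted line marks 10 CPM of Krt19. Males lie near 1 CPM of Prom1 except M3 of Q111 at 10 months (20.2 CPM) and the library labelled M5 of Q80 at 2 months (5.37 CPM).

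Zfp512, a zinc finger protein, was higher in Q92 than in WT at 10 months by a small margin. Its lowest, median and highest levels were 6.76, 8.66 and 10.3 CPM in WT and 8.44, 10.4 and 11.9 CPM in Q92. The ranges overlapped, with the median of Q92 above the highest WT mouse. The log2 fold change was 0.28 ± 0.07 (adjusted p = 0.0452, edgeR), and at 2 months it was 0.01 ± 0.07. The call did not hold when any of 6 WT mice was left out singly (WT F1, F2, F3, F4, M3 or M4, adjusted p from 0.056 to 0.12 by edgeR). Without the libraries that had Krt19 above 10 CPM, which include Q92 females F3 and F4, the value was 0.23 (adjusted p = 0.312, edgeR). In females alone it was 0.41 (adjusted p = 0.0855) and in males alone 0.14 (adjusted p = 0.817).

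Prkag2 encodes a regulatory subunit of AMP-activated protein kinase, the cell's sensor of low energy, and was lower in Q175 than in WT at 10 months. Its levels were 24.9, 29.3 and 30.3 CPM (lowest, median, highest) in WT and 20.9, 22.7 and 27.1 CPM in Q175. The median of Q175 lay below every WT mouse, and the ranges overlapped. The log2 fold change was −0.29 ± 0.08 (adjusted p = 0.0484, edgeR). At 2 months it was −0.24 ± 0.11 (adjusted p = 0.280, edgeR). The 7 muscle markers summed to up to 801 CPM and the 5 red cell markers to up to 8033 CPM in Q175 at this age, and to at most 0.784 and 602 CPM in WT. Without the 3 Q175 libraries with muscle or blood RNA the value at 10 months was −0.25 (adjusted p = 0.376, edgeR), and the call was also lost without WT F1, F4, M1, M2, M3 or M4. By limma it was −0.19 (adjusted p = 0.219), and the 1 member that limma called was another, beside 0.656% of all genes.

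Differences among the 6 lines, WT left out, were tested at each age and over the ages together, with sex and age in the model. At 2 months 1 member was called, Prom1, beside 0.432% of all genes. At 6 months 35 members were called (33.3%), beside 24.8% of all genes, and without the 3 Q20 females that stand apart 15 of these members, beside 11.2%. At 10 months 12 members were called (11.4%), beside 6.92%, and without the libraries with muscle or blood RNA 7 of these 12, beside 3.09%. Without the libraries that had Krt19 above 10 CPM none of the 12 was called, and 1 other member, Snx17, was, beside 2.45% of all genes. Over the ages together 5 members were called (4.76%), beside 2.65%: Prom1, Drc1, Mapre3, Prr14l and Prkag2, with adjusted p of 0.00803, 0.0153, 0.0241, 0.0278 and 0.0278 in edgeR's test. Without the libraries with muscle or blood RNA Drc1 and Prom1 were called, beside 1.69% of all genes, and without the Q20 females of 6 months Drc1, Prom1 and Prr14l, beside 1.75%. Females alone and limma gave 0 members, and males alone gave none of these 5.

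**Figure D3:**
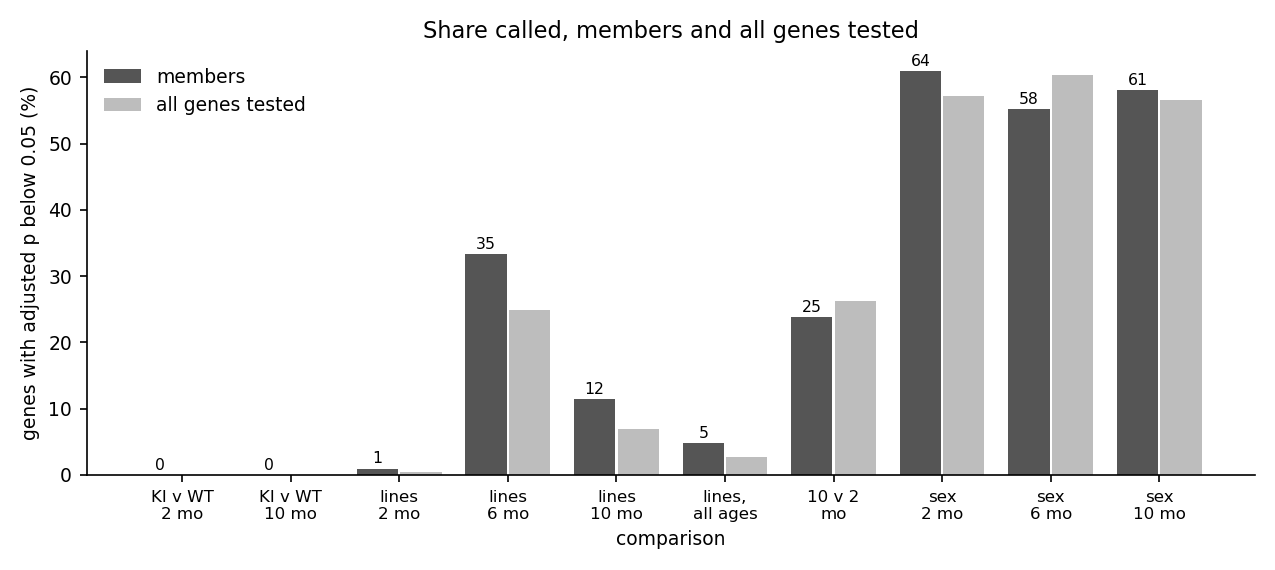
Share of the 105 members (dark bars, with their number above) and of all genes tested (light bars) with an adjusted p below 0.05, in percent, for the comparisons of knock-in with WT, among lines, between ages and between sexes. The members had 0 calls when the knock-in lines together were compared with WT and shares elsewhere from 0.952% among lines at 2 months to 61.0% between sexes at 2 months.

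The 15 pairs of lines were compared over the ages together. Q175 against Q20 gave 6 members (3.08% of all genes), Q175 against Q80 gave 2 (1.89%) and Q175 against Q111 gave 1 (1.05%). Q175 against Q92 (0.354%) and Q175 against Q140 (0.262%) gave none. At an unadjusted p below 0.05 Q175 against Q92 had 20 members (19.05%), beside 12.7% of all genes. At that limit Q175 against Q140 had 12 members (11.4%), beside 10.8% of all genes. DESeq2 called 0 and 1 in these 2 pairs (0.321% and 0.249% of all genes). None of the 10 pairs without Q175 had a member called, where 0.995% of all genes were called in at least 1 of those pairs. Without the Q80 library M5, Mapre3 was called in Q80 against Q20, beside 0.956% of all genes, and in males alone Fndc4 and Slc5a6 were called in Q92 against Q80, beside 1.65%. Whether a pair with Q175 differs more than another pair was not tested.

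The 6 members called between Q175 and Q20 had log2 differences of 0.12 to 0.24 in size. Mapre3, which binds the growing ends of microtubules, was higher in Q175 by 0.22 ± 0.05 (adjusted p = 0.00262, edgeR). Nelfa, a subunit of the factor that pauses RNA polymerase II, was higher by 0.21 ± 0.06, and Slbp, which binds the stem-loop of histone mRNA, by 0.13 ± 0.04. Prkag2 was lower in Q175 by a log2 difference of −0.24 ± 0.06 (adjusted p = 0.00712), Prr14l by −0.21 ± 0.05 (adjusted p = 0.00574) and Bod1l, which protects stalled replication forks, by −0.12 ± 0.04. Without the Q20 females of 6 months 3 of the 6 were called, beside 0.91% of all genes, and Nelfa (adjusted p = 0.0985, edgeR), Bod1l (0.109) and Slbp (0.102) were not. Bod1l (0.118) and Slbp (0.1003) were also lost without the libraries with muscle or blood RNA, where 1.56% of all genes were called. Females alone called Prkag2 of the 6, males alone Mapre3, and limma both of these.

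Mapre3 was lower in females at all 3 ages. It is given by sex at 6 months, and the ranges of both sexes at 2 and 10 months hold that difference too. At 6 months the Q175 males had 33.2, 32.2, 36.6 and 34.4 CPM and the Q20 males 26.9, 23.8, 29.05 and 25.5 CPM, while the females had 19.6, 22.6, 19.3 and 23.8 CPM in Q175 and 18.5, 20.5, 19.2 and 18.7 CPM in Q20. The males did not overlap and the females did. At 2 months the lowest, median and highest levels of both sexes were 20.8, 24.8 and 31.3 CPM in Q175 and 19.3, 22.1 and 25.2 CPM in Q20. At 10 months they were 19.7, 26.0 and 28.0 CPM and 17.2, 21.3 and 26.7 CPM. Whether the difference depends on sex was not tested. In females alone the difference between the lines over the ages was 0.18 (adjusted p = 0.175, edgeR).

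The medians of Prr14l in these lines lay closest at 2 months. Its lowest, median and highest levels in Q175 were 22.2, 25.7 and 27.7 CPM at 2 months, 16.2, 20.3 and 21.8 CPM at 6 months and 16.6, 21.4 and 25.9 CPM at 10 months. In Q20 they were 21.1, 26.6 and 28.4 CPM, 19.1, 23.7 and 27.1 CPM, and 21.6, 26.9 and 35.1 CPM. The ranges overlapped at each age. A change of this difference with age was not tested.

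Prkag2 was lower in Q175 at all 3 ages by its medians. In Q175 these were 23.0, 25.4 and 22.7 CPM at 2, 6 and 10 months, and in Q20 28.9, 29.2 and 27.5 CPM. The single values ran from 18.8 to 27.6 CPM in Q175 and from 20.4 to 42.9 CPM in Q20 over the 3 ages, so the lines overlapped.

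Drc1 and Prom1 were called between Q175 and Q80, and both were lower in Q175. Females alone called both, while males alone and limma called neither. With the replicate number as a block Drc1 was called and Prom1 was not. Drc1 had means of 1.06 ± 0.414 CPM (SD, n = 8), 1.17 ± 0.369 CPM (n = 8) and 0.788 ± 0.232 CPM (n = 7) in Q80 at 2, 6 and 10 months, and 0.765 ± 0.227, 0.734 ± 0.207 and 0.530 ± 0.113 CPM in Q175 (n = 8 each). The log2 difference was −0.58 ± 0.15 (adjusted p = 0.0189, edgeR), and without the libraries with muscle or blood RNA it was −0.57 (adjusted p = 0.065). Prom1 was lower in Q175 than in Q80 by a log2 difference of −0.94 ± 0.25 (adjusted p = 0.026, edgeR). This call was lost without the Q80 library M5 of 2 months, whose sex label is in doubt (−0.78, adjusted p = 0.058), and without the libraries with muscle or blood RNA (−0.96, adjusted p = 0.074). Against Q111 the log2 difference of Prom1 was −1.19 ± 0.25 (adjusted p = 0.00161, edgeR), and without the libraries that had Krt19 above 10 CPM it was −0.58 (adjusted p = 0.248).

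**Figure D4:**
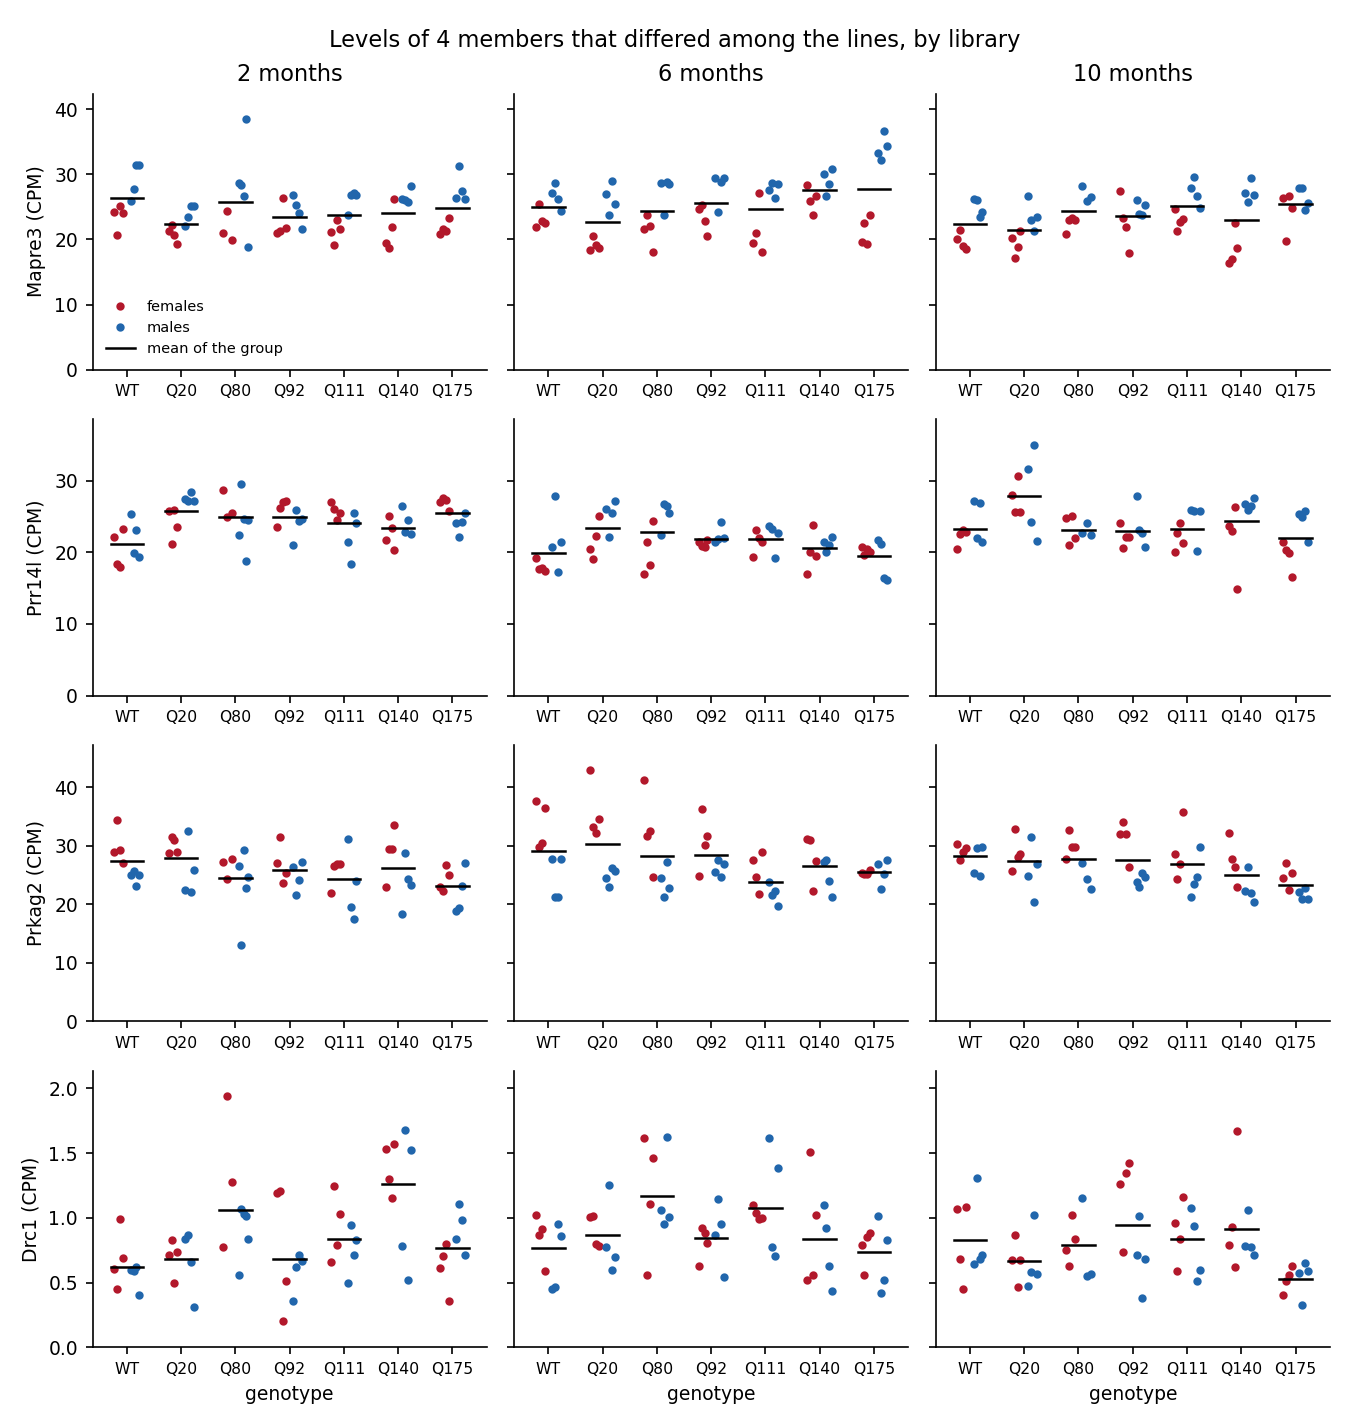
Levels of Mapre3, Prr14l, Prkag2 and Drc1 in every library, in CPM, by genotype at 2, 6 and 10 months. Red points are females, blue points males and black lines the mean of the group. Mapre3 of Q175 males at 6 months lies between 32.2 and 36.6 CPM, and the groups overlap in most other panels.

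Of the members called among the lines at 6 and 10 months 4 are named here after their values were seen. Dnajb6, a chaperone that holds polyglutamine proteins in solution, had the smallest p at 6 months (adjusted p = 0.000114, edgeR). Q92 had the highest mean, 79.9 ± 15.7 CPM (SD, n = 8), and the other lines stood between 56.9 and 63.7 CPM. Spon2 came next (adjusted p = 0.000151, edgeR), with the lowest mean in Q92, 2.19 ± 1.33 CPM, and the highest in Q140, 5.82 ± 3.78 CPM. Females alone called both at 6 months (adjusted p = 0.00349 for Dnajb6 and 0.0233 for Spon2, edgeR). Males alone called neither (0.0810 and 0.0511). At 10 months Ppm1g, a protein phosphatase, had its lowest mean in Q92 (29.8 ± 4.78 CPM) and its highest in Q175 (40.5 ± 1.61 CPM), with WT at 35.6 ± 3.31 CPM and an adjusted p of 0.00596 by edgeR. Tada2b, an adaptor subunit linked to histone acetylation, was also lowest in Q92 and highest in Q175, with 20.6 ± 3.10 CPM in Q92 and 27.1 ± 2.11 CPM in Q175 (adjusted p = 0.00651, edgeR). Without the libraries that had Krt19 above 10 CPM, which include 2 of Q92, the adjusted p was 0.0544 for Ppm1g and 0.0608 for Tada2b (edgeR), and neither was called in either sex alone. Prom1, which had the smallest p at 10 months (adjusted p = 0.0029, edgeR), is described above, and without those libraries its adjusted p was 0.101.

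Sex was compared after the data were seen, and the genes named for it were chosen from their values. At 2 months 34 members were higher in females and 30 lower, beside 29.6% and 27.6% of all genes. At 6 months the counts were 27 and 31, beside 31.1% and 29.4%, and at 10 months 29 and 32, beside 29.8% and 26.8%. At all 3 ages 21 members were higher (20.0%) and 21 lower in females, beside 20.9% and 20.4% of all genes tested at each age. At no age 23 were called (21.9%), beside 23.1%, and none was called in opposite directions, beside 0.2%. The log2 differences of the 105 members between females and males had a Pearson r of 0.95 between 2 and 6 months and 0.98 between 6 and 10 months, in separate animals, as a description across genes. By role, 4 of 6 transporters and channels were higher in females at 2 months and 1 lower, while of 13 genes of ubiquitin, folding and secretion 4 were higher and 7 lower.

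Prom1 had the largest difference. Its lowest, median and highest levels at 6 months were 1.94, 6.25 and 17.6 CPM in 28 females and 0.297, 0.940 and 1.72 CPM in 28 males, so that no male reached the lowest female. At 2, 6 and 10 months the log2 differences, females against males, were 2.64 ± 0.16, 2.82 ± 0.19 and 2.69 ± 0.23 (adjusted p = 3.56e-20, 9.20e-19 and 1.95e-14, edgeR). At 2 months the sexes overlapped only through the library labelled male M5 of Q80, and at 10 months through male M3 of Q111.

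Spon2 and Cpeb2 had the largest differences in the other direction. Cpeb2, which binds the cytoplasmic polyadenylation element of mRNA and controls translation, had levels of 15.7, 23.0 and 35.3 CPM in 27 females and 19.5, 56.2 and 104 CPM in 29 labelled males of 2 months (lowest, median, highest). The log2 differences were −1.30 ± 0.12, −1.45 ± 0.11 and −1.36 ± 0.11 at 2, 6 and 10 months. Spon2 gave −1.37 ± 0.14, −1.67 ± 0.10 and −1.30 ± 0.16. Both members overlapped between the sexes at each age.

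Of the transporters, Slc5a6, which carries biotin and pantothenate, was higher in females by 1.16 ± 0.12, 1.23 ± 0.09 and 0.76 ± 0.09 at 2, 6 and 10 months. Slc5a1, a sodium-driven glucose transporter, was higher by 0.53 ± 0.13, 0.97 ± 0.16 and 1.02 ± 0.13, and Slc2a9 by 0.28 ± 0.04, 0.62 ± 0.04 and 0.48 ± 0.05. Letm1, a cation exchanger of the mitochondrial inner membrane, was lower, with −0.38 ± 0.04, −0.53 ± 0.05 and −0.51 ± 0.06. Among the enzymes Selenoi, which makes phosphatidylethanolamine, was lower (−0.53 ± 0.05, −0.61 ± 0.06 and −0.50 ± 0.07) and the lysosomal mannosidase Man2b2 higher (0.42 ± 0.04, 0.48 ± 0.04 and 0.43 ± 0.04). Of the genes next to Htt, Rgs12 was higher in females by 0.49 ± 0.08, 0.57 ± 0.07 and 0.69 ± 0.07 and Hgfac by 0.36 ± 0.03, 0.41 ± 0.04 and 0.41 ± 0.05, each with an adjusted p below the threshold in edgeR's test at all 3 ages. Cc2d2a, a protein of the ciliary transition zone, was higher by 0.41 ± 0.09, 0.98 ± 0.11 and 0.83 ± 0.10.

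**Figure D5:**
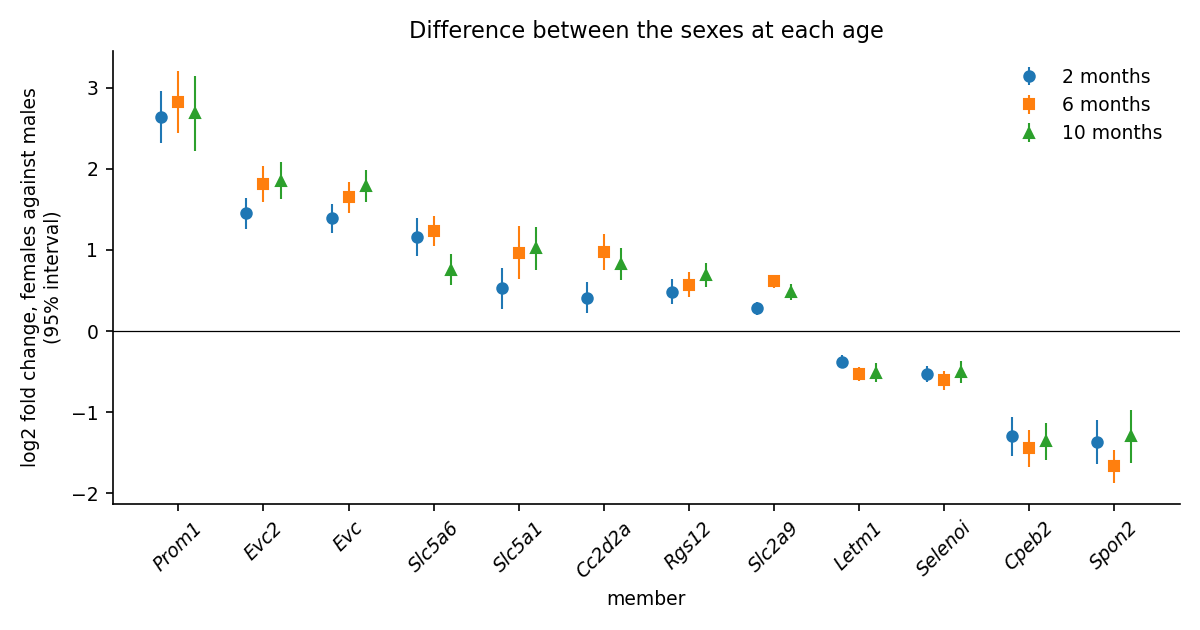
Log2 fold change, females against males, of 12 members at 2, 6 and 10 months, with 95% confidence intervals. Prom1 lies between 2.64 and 2.82 and Spon2 between −1.67 and −1.30, and each member keeps its sign over the ages.

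Evc and Evc2, neighbours on opposite strands that start 1605 bases apart and run away from each other, were both higher in females. At 10 months Evc had lowest, median and highest levels of 3.43, 4.96 and 9.43 CPM in 28 females and 0.788, 1.42 and 2.26 CPM in 27 males, and Evc2 1.97, 3.05 and 9.22 CPM in females and 0.557, 0.912 and 1.51 CPM in males. The sexes did not overlap in either gene at that age. The log2 differences of Evc were 1.39 ± 0.09, 1.65 ± 0.10 and 1.79 ± 0.10 at 2, 6 and 10 months, and those of Evc2 1.45 ± 0.09, 1.82 ± 0.11 and 1.86 ± 0.11 (adjusted p from 8.95e-22 to 6.48e-19, edgeR).

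Their promoters are shown because the pair shares the stretch of DNA between the starts and both were higher in females. The sequences are the 250 bases before each start in RefSeq on GRCm38.p6, Evc at chr5:37336882-37337131 on the minus strand and Evc2 at chr5:37338228-37338477 on the plus strand, each read 5′ to 3′ in the direction of its gene. Capitals mark the longest run of bases that the windows share, 13 bases, which lies on opposite strands relative to the 2 genes.
Evc: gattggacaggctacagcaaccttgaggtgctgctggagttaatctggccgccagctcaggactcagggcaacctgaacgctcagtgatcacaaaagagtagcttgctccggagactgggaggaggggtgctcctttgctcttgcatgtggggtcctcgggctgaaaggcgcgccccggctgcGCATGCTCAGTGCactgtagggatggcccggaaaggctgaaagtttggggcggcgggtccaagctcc
Evc2: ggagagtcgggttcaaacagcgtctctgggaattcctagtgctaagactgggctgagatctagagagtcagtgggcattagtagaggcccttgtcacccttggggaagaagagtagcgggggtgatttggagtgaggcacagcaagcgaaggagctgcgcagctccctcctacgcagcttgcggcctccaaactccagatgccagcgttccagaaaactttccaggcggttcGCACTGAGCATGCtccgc
The run GCATGCTCAGTGC, on either strand, was found in 7 of 32851 windows of this length (0.0213%), and these 2 are among the 7. The match is a description of letters and was found by searching these 2 windows.

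Age was also compared after the data were seen. When the libraries of each age were made cannot be told apart from age. With genotype and sex in the model 12 members were higher at 10 months than at 2 and 13 lower, beside 13.9% and 12.4% of all genes. Nrbp1, a pseudokinase, had the smallest p and fell by 0.09 ± 0.02 on the log2 scale (adjusted p = 1.38e-06, edgeR). The largest rises were those of Slc5a1 (0.45 ± 0.09), Prom1 (0.44 ± 0.14), the serine protease Htra3 (0.38 ± 0.08) and Evc2 (0.29 ± 0.07). These values are taken over all genotypes. In WT the mean of Prom1 went from 4.78 to 4.08 CPM and that of Evc2 from 2.01 to 2.05 CPM. In knock-in mice Prom1 went from 4.16 to 6.58 CPM and Evc2 from 1.61 to 2.25 CPM. The mean of Htra3 rose in knock-in mice only, and that of Slc5a1 in both. The test of knock-in against WT between the ages called 0 members. Of the 7 libraries with Krt19 above 10 CPM, 4 were of 10 months and 2 of 2 months. Letm1 showed the largest fall, −0.18 ± 0.04, and the regulator of glucokinase, Gckr, fell by 0.12 ± 0.02. In males alone 11 members were called, beside 16.0% of all genes. The difference between the sexes itself changed from 2 to 10 months in 2 members, beside 3.08% of all genes: Slc2a9, by 0.21 ± 0.06 (adjusted p = 0.0463, edgeR), and Mxd4, by −0.15 ± 0.04 (adjusted p = 0.00971).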

How the data were processed

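PolyA RNA of flash-frozen liver was sequenced, and base calling used CASAVA 1.8.2 per the submitters' processing notes. Which aligner, quantifier and genome build were used is not given in the sources used here. Per gene, the authors deposited expected counts, of which 14.1% of the values were not whole and were rounded, and FPKM. Positions and symbols came from GENCODE M21 (GRCm38), with 37607 of 39179 IDs matched. Counting by strand is not stated, so reads of overlapping genes cannot be assigned.

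Counts were tested with edgeR 4.0.16 in R 4.3.3 (TMM, filterByExpr on genotype and sex, quasi-likelihood test, labelled sex in the model, ages apart), with p-values adjusted over all genes tested at a threshold of 0.05. Levels are CPM on TMM library sizes. The method was tested on simulated data. P-values measure the spread between animals, whose litters are not given.

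The members and role lists were chosen with earlier results of these data known. The text names the members past the threshold among lines or in a line against WT, the 3 genes nearest Htt on each side and, in each role list, the member with the smallest p. Any other gene was named for its values. Some genes of the window are not analysed here. Comparisons of sex and age were added after the data were seen.

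Alternatives were limma 3.58.1 on log2(FPKM + 0.1), DESeq2 1.42.0, the fit with no filter on low counts, RLE normalization, a replicate block, each sex alone, index code as a covariate, only the groups compared, single WT libraries left out, and the doubtful libraries left out. Leaving out the libraries with Krt19 above 10 CPM and the Q20 females was added after the data were seen. Replicate numbers run within a sex. Across groups, libraries of the same number were more alike by their median correlation at 6 months only.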

Additional observations from a re-analysis of the deposited data

Results flagged for a closer look

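Among 62 groups examined, in 4 cases a library stood apart from the other libraries of its genotype, age and sex by Dixon's test at the 95% level, which chance alone passes in about 1 of 20 groups. Evc2 was 2.24 CPM in Q175 female F4 at 2 months, where the other 3 females had 1.41 to 1.44 CPM. Prom1 was 27.1 CPM in Q111 female F2 at 10 months against 12.1 to 12.8 CPM, and 20.2 CPM in Q111 male M3 against 0.906 to 0.974 CPM. Drc1 was 1.62 CPM in Q80 male M3 at 6 months against 0.953 to 1.06 CPM.

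The difference between females and males changed from 2 to 10 months in Slc2a9, by 0.21 ± 0.06 on the log2 scale (adjusted p = 0.0463, edgeR), and in Mxd4, by −0.15 ± 0.04 (adjusted p = 0.00971, edgeR).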

How the results depend on the processing

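With 8 animals a group the intervals of scarce members such as Drc1 and Spon2 are wide. Comparisons with WT share the same WT libraries. Of the single-gene results rerun, none that passed the threshold in the main fit or the alternative changed direction. Direction was not checked for the other results. The knock-in lines together against WT gave 0 members at both ages under every alternative, also with single WT mice left out (0 to 0). Under limma on FPKM the median of all genes between sexes at 10 months was 0.14. Percentages below are shares of all genes called under the same setting.

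For Q175 against WT at 2 months, 1 call became 6 by DESeq2 (1.26%), 2 with RLE normalization (0.529%), with the index code (0.403%) or without the libraries with high Krt19 (0.697%), 3 with only the 2 groups (0.308%) or without the Q80 library M5 (0.754%), and 0 in females (0%), in males (0.0692%) and with no filter (0.103%). Single WT mice left out gave 0 to 4 (0.145% to 0.786%). For Q175 at 10 months, 1 became 3 by DESeq2 (1.49%) or without high Krt19 (1.65%), and 0 with RLE normalization (1.07%), the index code (1.03%), no filter (1.1%), only the 2 groups (0.0341%), in females (0.415%), in males (0.135%) or without muscle or blood RNA (0.0315%). It stayed 1 by limma (0.656%), with another member than Prkag2. Single WT mice left out gave 0 to 3 (0.51% to 1.11%).

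For Q92 against WT at 10 months, 1 became 3 by DESeq2 (1.51%), and 0 with the index code (0.217%), limma (0.253%), males (0%), no filter (0.136%), only the 2 groups (0%), or without high Krt19 (0.0253%) or muscle or blood RNA (0.416%). Single WT mice left out gave 0 to 1, where the main fit called 0.58% of all genes. For Q92 at 2 months, 0 became 2 by DESeq2 (0.192%) and 1 without the Q80 library M5 (0.112%) or without high Krt19 (0.0266%). It was 0 to 1 without single WT mice, where the main fit called 0.00661% of all genes. For Q140 at 2 months, 0 became 2 by DESeq2 (0.37%). For Q111 at 10 months, 1 became 0 in females (0.00659%), in males (0%), by limma (0.0115%), with only the 2 groups (0%) or without high Krt19 (0.00632%).

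Among lines at 2 months, 1 became 3 by DESeq2 (1.49%), 0 by limma (0.0416%) or in males (0.0557%) and 2 without high Krt19 (0.466%). At 6 months, 35 became 22 in females (15.5%) or with no filter (13.4%), 23 by limma (18.3%), 4 in males (2.02%) and 15 without the Q20 females (11.2%). At 10 months, 12 became 2 in females (1.65%), 5 by limma (2.73%), 0 in males (0.325%), 1 without high Krt19 (2.45%) and 7 without muscle or blood RNA (3.09%). With ages together, 5 became 0 in females (0.314%) or by limma (0.0546%), 2 in males (0.668%) or without muscle or blood RNA (1.69%) and 3 without the Q20 females (1.75%).

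For age, 25 became 11 in males (16%). For the change of the sex difference with age, 2 became 1 with RLE normalization (2.89%), with no filter (1.4%) or without muscle or blood RNA (3.2%), 5 by limma (5.85%) and 7 without high Krt19 (5.4%). Without single WT mice the sexes gave 62 to 66 members at 2 months and 60 to 62 at 10 months. In the main fit 64 members were called at 2 months (61.0%), beside 57.2% of all genes. At 10 months 61 were called (58.1%), beside 56.6%.

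With the replicate number as a block, the calls were 1 for Q92 (0.0661%) and 2 for Q175 (0.515%) at 2 months, 0 for Q111 (0.0446%) and 0 for Q175 (0.191%) at 10 months, 2 among lines with ages together (0.864%), and 1 for Q80 against Q20 (0.812%). At 2 and 10 months libraries with the same number were no more alike by their median correlation of deviations. It was −0.00958 for the same number and 0.00903 for different numbers at 2 months, and −0.015 and −0.00649 at 10 months. At 6 months it was higher for the same number, 0.074 against −0.0174. Whether the numbers pair animals at that age was not tested. Libraries correlated best with their own number in 15 of 56, 27 of 56 and 12 of 55 cases.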
